A study of Mus musculus with 4 samples.

Results

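Goblet cells, the mucus-secreting cells of the intestinal epithelium, were examined at embryonic day 17.5 (E17.5) and in irradiated adult mice. They were picked cell by cell from their RNA. A cell counted as goblet if it had at least 500 detected genes, at most 20% mitochondrial UMIs, at least 3 UMIs each of Muc2 and Fcgbp, and less than 0.1% of its UMIs from Chga and Chgb, the chromogranins of hormone-secreting cells. A UMI (unique molecular identifier) stands for 1 captured RNA molecule. The rule found 99 goblet cells among 4602 kept cells at E17.5 and 55 among 3184 in the irradiated adult library, 154 of 7786 in all. The series as a whole kept 15800 of 22731 barcodes. Because Muc2 and Fcgbp chose the cells, their values are given as a description only.

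Every library came from Bmi1-GFP mice, which carry a green fluorescent reporter of the Polycomb gene Bmi1, and, per the labels, from sorted Bmi1-expressing epithelial cells of the intestine, sequenced with the 10x 3' version 3 chemistry. There were 4 groups with 1 library each: E12.5, E17.5, adult, and adult after irradiation, and all carry the reporter. The E17.5 library was made from small intestine. The irradiation dose, the time after irradiation, the sorting gate and the number, age and sex of the animals are not given in the sources used here. With 1 library per group no difference has a replicate check, so no p-value is given, and all intervals cover counting error only. E17.5 and irradiated adult cells differ in age, irradiation and library together, and these cannot be told apart. The unirradiated adult library is given beside them where it holds goblet cells.

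Goblet cells release MUC2, a mucin that is densely coated with sugars, folded and cross-linked in the endoplasmic reticulum, packed into granules and hydrated on secretion into a gel. FCGBP, CLCA1, ZG16, TFF3 and AGR2 are secreted with it or help to make it. The lineage is specified by Atoh1 in cells that escape Notch signalling and matures under Spdef and Klf4, and it shares its secretory precursor with Paneth cells, which release defensins and lysozyme at the crypt base.

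Goblet cells made up 2.15% of kept cells at E17.5 (exact Clopper-Pearson 95% interval 1.75 to 2.61), 0.449% of the adult library (17 of 3788 cells, 0.262 to 0.718) and 1.73% of the irradiated one (1.30 to 2.24). Of the irradiated cells 23 were rich in Paneth RNA, as described further on, and without them the share was 1.01% (0.688 to 1.42). None of 4226 cells at E12.5 met the rule, which allows a share of up to 0.0710%. Sorting on the reporter can set these shares, so they are not shares of the intact epithelium. The limit on Chga and Chgb bore unequally on the libraries. It left out 1 cell at E17.5 and 6 adult cells, but 60 cells after irradiation, of which 15 had 1% or more of their UMIs from Chga and Chgb, and without it the irradiated count was 115. Those 60 cells had a median of 39.5 Muc2 UMIs and 451 Zg16 UMIs.

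The goblet cells were deep. Their median was 32161 UMIs at E17.5 against 11499 over all kept cells, 61182 against 3699.5 for adult cells, and 36406 against 8786 after irradiation, in libraries of 38648331 to 90674425 UMIs. A minimum of 3 UMIs is easier to reach in a deep cell: 36 of 99, 17 of 17 and 41 of 55 goblet cells lay above the 90th percentile of depth of their library. After thinning every cell to 2000 UMIs the rule kept 5, 3 and 36 cells. Scrublet, which scores putative doublets, marked 4 goblet cells at E17.5, 1 adult cell and 0 irradiated cells. No barcode of a goblet cell recurred in another library. The reporter was close to absent from the counts, with 1 eGFP UMI at E17.5 and 14 in the irradiated goblet cells.

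At the edge of the rule, the 20 E17.5 cells whose lower count of Muc2 and Fcgbp was exactly 3 had medians of 82 Spink4, 85 Tff3 and 94 Agr2 UMIs. The 21 cells just outside, with a lower count of 2, had 59, 99 and 109. Cells on either side of the threshold thus carried similar goblet RNA at this stage. In the irradiated library the 5 cells just inside and the 12 just outside were both rich in Paneth RNA, with medians of 60.3% and 58.4% of UMIs.

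The checks against markers separated the libraries. Spink4, a goblet peptidase inhibitor, was detected in all 99 E17.5 cells. Zg16, a lectin of mature mucus granules, was detected in 21.2% of them and in 47.1% of adult cells, against all 55 irradiated cells. These shares are at full depth. Of the 55 cells, 18 had only 1 to 93 Zg16 UMIs (median 4) beside a median Paneth share of 47.9%. Zg16 RNA was also found in endocrine cells of that library, as given further on, so its detection alone does not mark goblet cells there. Apart from the genes of the rule, the E17.5 cells carried Spink4, Tff3, Agr2 and Clca1 RNA, and most of them lack detected Zg16. In the irradiated library the label is mixed: the summed share of UMIs from 21 Paneth marker genes fell in 2 ranges with none between. In 32 cells it was at most 3.84%, and these are called Paneth-low. In the other 23, or 41.8% (28.7 to 55.9), it ran from 12.2% to 63.4%, and these are called Paneth-high. All E17.5 cells (highest 3.22%) and 16 of 17 adult cells (highest 2.95%) were Paneth-low, and 1 adult cell had 61.9%. Results for the irradiated library are given for all 55 cells and for the 32 Paneth-low cells, and the boundary of 5% was set after the values were seen.

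The promoter windows of Muc2, Fcgbp and Itln1 are shown because the first 2 define the cells and Itln1, an intelectin that binds microbial sugars, had the highest irradiated-over-E17.5 ratio of all named genes. Each is the 250 bases before the RefSeq transcript start (GRCm38.p6), 5′ to 3′ on the gene's strand, with the E-box CAGCTG, a site of basic helix-loop-helix factors such as Atoh1, in capitals. They lie at chr7:141690090-141690339 (plus strand, Muc2), chr7:28070986-28071235 (plus strand, Fcgbp) and chr1:171535295-171535544 (minus strand, Itln1).
Muc2: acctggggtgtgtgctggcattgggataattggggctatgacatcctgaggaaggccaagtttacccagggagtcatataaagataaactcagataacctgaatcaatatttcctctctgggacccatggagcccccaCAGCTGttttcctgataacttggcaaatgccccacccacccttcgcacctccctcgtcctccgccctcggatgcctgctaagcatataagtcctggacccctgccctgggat
Fcgbp: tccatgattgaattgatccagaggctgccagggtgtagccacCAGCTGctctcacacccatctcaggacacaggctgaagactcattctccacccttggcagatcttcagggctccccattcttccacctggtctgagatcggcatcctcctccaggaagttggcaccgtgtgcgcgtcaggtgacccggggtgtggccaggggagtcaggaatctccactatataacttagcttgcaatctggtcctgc
Itln1: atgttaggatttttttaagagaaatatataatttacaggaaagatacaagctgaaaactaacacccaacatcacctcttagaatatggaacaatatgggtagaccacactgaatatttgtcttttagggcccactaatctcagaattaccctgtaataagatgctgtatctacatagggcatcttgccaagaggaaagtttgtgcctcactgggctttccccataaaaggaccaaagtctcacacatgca
The E-box starts 112 bases before the transcript start of Muc2 and 208 bases before that of Fcgbp, and its letters are not in the Itln1 window. It was found in 5 of the 18 mucus-list genes with a window in the table (27.8%: Fcgbp, Guca2a, Lypd8, Muc2 and Sval1), against 13.0% of all 32851 windows. For this and the other motifs the first is a share of genes, counted if any window of the gene matched. The second is a share of windows, which belong to 27025 genes, so the 2 are unlike measures. CAGCTG is its own reverse complement, and the other motifs were searched on both strands. A forkhead motif, TGTTTAC, was in 2 of the 18 (Guca2a and Reg4) against 3.17% of windows. A Krüppel-like motif, GGGTGTGG, was in 1 (Fcgbp, 61 bases before the start) against 3.20%. An ATF/CREB half-site, TGACGT, was in 0 against 6.47%. These are matches of letters, with no measurement of binding in these data.

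The secreted products of goblet cells were far higher per cell in the irradiated adult than at E17.5. Levels are CPM, the UMIs of a gene scaled to a common total, either in 1 cell or over all UMIs of a set of cells. Muc2 (chr7:141690340-141754693, GRCm38, plus strand) had a lowest, median and highest level of 49.7, 193 and 3919 CPM over the 99 E17.5 cells, and 2624, 13258 and 48381 CPM over the 32 Paneth-low irradiated cells. Fcgbp (chr7:28071236-28120862), the Fc-gamma-binding protein of the mucus gel, had 92, 505 and 23415 CPM at E17.5 and 5150, 30091 and 117449 CPM in the Paneth-low irradiated cells. The ranges of both genes overlapped, through the few highest E17.5 cells.

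Clca1, a mucus-processing metalloprotease, was not used by the rule and behaved alike. Clca1 had 0, 274 and 18480 CPM at E17.5 and 1127, 11776 and 46441 CPM in the Paneth-low irradiated cells. Over summed UMIs Clca1 stood at 524 CPM at E17.5, 690 CPM in the 16 Paneth-low adult cells, 10321 CPM in the Paneth-low and 983 CPM in the Paneth-high irradiated cells. Its log2 ratio of irradiated over E17.5, on the scale of CPM plus 1, was 3.18 over all cells (counting interval 3.11 to 3.25) and 4.30 in the Paneth-low cells (4.22 to 4.38). The Clca1 level of these 16 adult cells was thus close to E17.5, and the level in irradiated Paneth-low cells stood above both. Most of the 16 carried mitotic RNA. After thinning to 2000 UMIs, 11 of them had at least 3 UMIs of the G2/M genes described further on. Adult values here and below are those of deep, mostly cycling cells, and other adult goblet cells may differ.

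Zg16 (chr7:127050156-127087328, minus strand) showed the widest gap of the 4 goblet markers. Its median was 0 CPM at E17.5, 26.1 CPM in Paneth-low adult cells and 175632 CPM in Paneth-low irradiated cells, whose lowest cell had 1448 CPM and whose highest had 375108 CPM. Summed over cells, Zg16 reached 251 CPM at E17.5 and 162395 CPM in the Paneth-low irradiated cells, a log2 ratio of 9.33 (9.24 to 9.44), and 75301 CPM over all irradiated cells (8.23). The E17.5 level rested on few cells. Of 794 Zg16 UMIs at E17.5, 540 came from 1 cell and 138 from another, and without both cells the E17.5 level was 36.8 CPM and the log2 ratio over all cells 10.96. After thinning to 2000 UMIs, Zg16 was present in 9.09% of E17.5 cells (4.24 to 16.6), 23.5% of adult cells and 74.5% of irradiated cells (61.0 to 85.3), and in 32 of 32 Paneth-low irradiated cells. Endocrine cells, which should lack the gene, had a Zg16 UMI at that depth in 0.893%, 0.373% and 33.0% (unthinned median depths 6231, 6414.5 and 9331 UMIs), so Zg16 RNA was widespread in the irradiated library.

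Spink4 (chr4:40920052-40931395), Tff3 (chr17:31125306-31129646), a trefoil peptide that protects the mucosa, and Agr2 (chr12:35992907-36004087), a disulfide isomerase needed for mucin folding, were already high at E17.5. Spink4 had a median of 4565 CPM at E17.5, 4110 CPM in Paneth-low adult cells, 29412 CPM in Paneth-low and 34862 CPM in Paneth-high irradiated cells. Tff3 had medians of 3998, 3053, 66017 and 7890 CPM in the same 4 sets, and Agr2 of 3911, 2255, 15144 and 4447 CPM. Spink4 did not separate Paneth-low from Paneth-high irradiated cells, while Tff3 and Agr2 were lower in the Paneth-high cells. The log2 ratios of Paneth-low irradiated over E17.5 cells were 2.98 (2.95 to 3.01) for Spink4, 3.55 (3.53 to 3.58) for Tff3 and 2.27 (2.24 to 2.30) for Agr2. For Tff3, the ratio in the other non-endocrine epithelial cells of the 2 libraries was -0.08. These other cells differ in makeup between the libraries. At least 3 UMIs of 14 tuft cell genes were found in 11 of 1871 at E17.5, 893 of 1046 in the adult and 174 of 211 after irradiation. Ratios between libraries in the other cells, here and below, carry this difference, and its part in them was not tested. At 2000 UMIs a Tff3 UMI was also present in 82.3% of E17.5 and 92.9% of irradiated endocrine cells, so its detection alone does not mark goblet cells here.

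**Figure D1:**
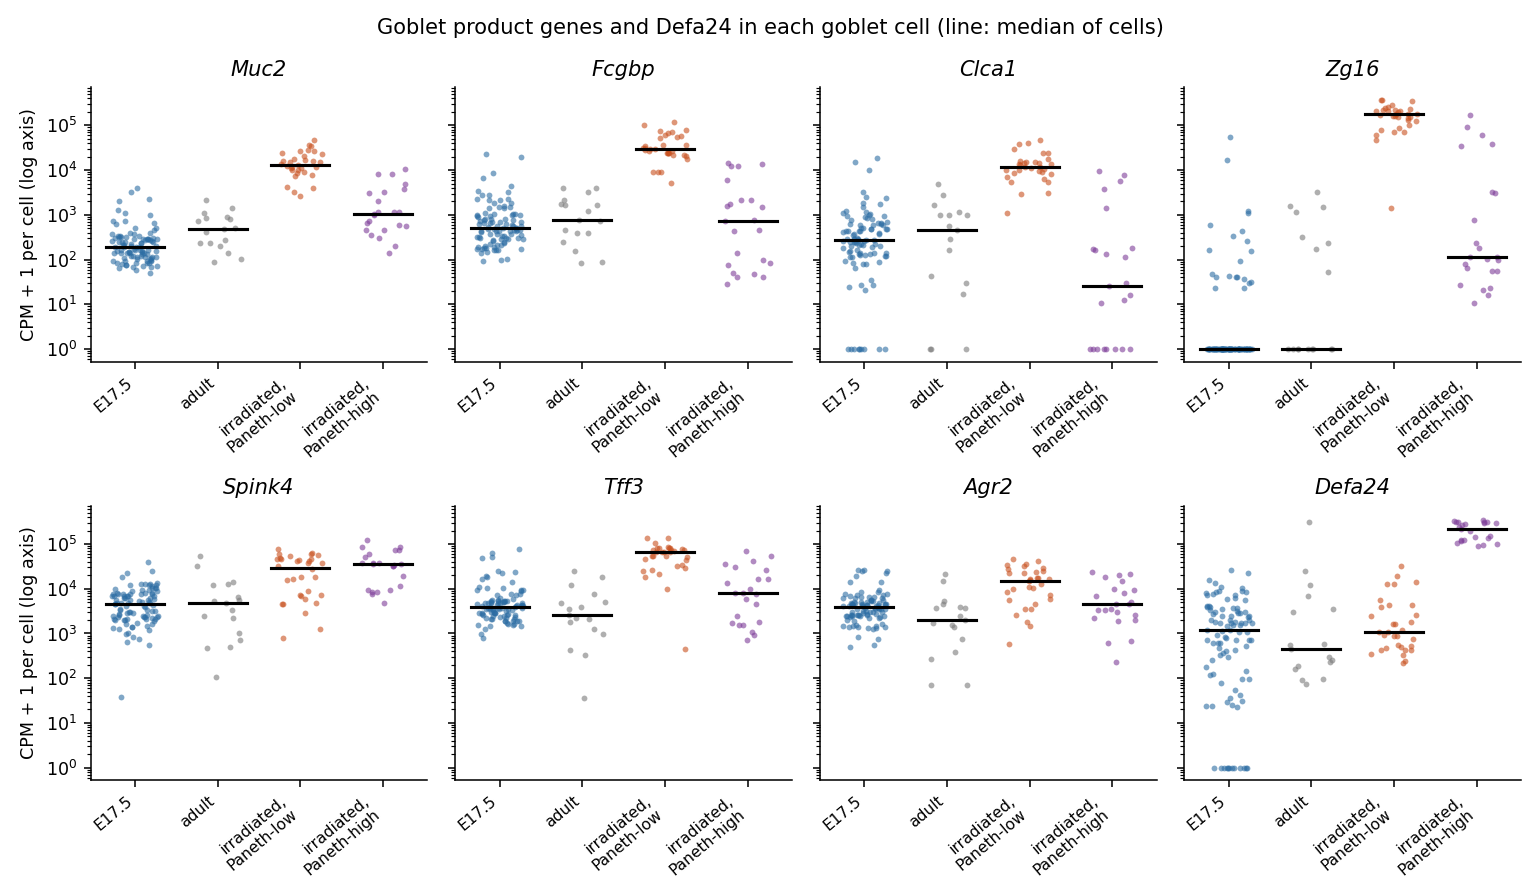
Level of each gene (CPM plus 1, log axis) in every goblet cell of the E17.5 (99 cells), adult (17), irradiated Paneth-low (32) and irradiated Paneth-high (23) sets, with the median as a line. Zg16 has a median of 0 CPM at E17.5 and of 175632 CPM in Paneth-low irradiated cells, while Defa24, which belongs to the list that defined the Paneth-high cells, is at 90474 CPM or more in them.

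Over the list of 30 mucus gel and secreted product genes, 20 had at least 50 UMIs in the goblet cells of either library and could be compared. Of these, 18 were more than 2-fold higher in the irradiated than in the E17.5 goblet cells and 0 were lower, with a median log2 ratio of 3.01. These include Muc2 and Fcgbp, which chose the cells, and 3 genes that reached 50 UMIs only after irradiation and so had to be higher. Leaving out both kinds, 15 genes reached the minimum in both libraries, of which 13 were higher and 0 lower, median 2.79, and over all 3138 such genes 144 were higher and 1456 lower, median -0.90. Counts of this and the following lists are descriptions for the same reason. Over all 6645 genes compared, 4.79% were more than 2-fold higher and 60.2% lower, with a median of -1.26. In the Paneth-low cells 18 of 18 were higher, median 3.54 (15 of 15 of those in both libraries without Muc2 and Fcgbp, median 2.98), against 6.35% higher and 44% lower of 6520 genes. In the other non-endocrine epithelial cells 14 of 22 mucus genes were higher and 4 lower, median 1.48, against 12.6% higher and 16.7% lower of 12107 genes. The list took 1.86% of all UMIs of E17.5 goblet cells, 34.8% in the Paneth-low and 12% in the Paneth-high irradiated cells. Between single cells its share ran from 0.659% to 19.6% at E17.5 and from 1.75% to 57.9% in the Paneth-low irradiated cells. Because CPM values sum to a fixed total, a list that takes this much of it lowers the CPM of the other genes, and ratios are read against the median of all genes.

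Among the remaining products, Itln1 (chr1:171518122-171535294, minus strand) was at 0.631 CPM at E17.5, or 2 UMIs in 99 cells, at 560 CPM in Paneth-low adult cells, 9770 CPM in Paneth-low and 35986 CPM in Paneth-high irradiated cells. The log2 ratio of Itln1 over all cells was 13.93, with a counting interval of 13.44 to 18.34. Ang4, an antimicrobial ribonuclease, was at 16.1, 523, 1531 and 5544 CPM in the same order. Both were highest in the Paneth-high cells. Guca2a, the precursor of the fluid-regulating peptide guanylin, was at 334 CPM at E17.5, 317 CPM in Paneth-low adult and 3836 CPM in Paneth-low irradiated cells. Reg4, a secreted lectin, was at 100, 64.6 and 2546 CPM in those sets, and Klk1, a kallikrein, at 134, 175 and 624 CPM. Guca2a, Reg4 and Klk1 shared the order of Clca1, with E17.5 and the mostly cycling adult cells close and irradiated cells above them.

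Not all secreted products followed. Pigr, which carries IgA across the epithelium, was at 20.2 CPM at E17.5 and 472 CPM in Paneth-low irradiated cells, but its highest level, 1743 CPM, was in Paneth-low adult cells, so that irradiated over adult was -1.88 (-2.03 to -1.74) on the log2 scale. Lypd8, which keeps flagellated bacteria off the epithelium, had a log2 ratio of 0.04 over all goblet cells and 1.04 in the Paneth-low cells, so it was among the 2 of 20 genes under 2-fold. The other was Muc13, a membrane mucin, at 352 CPM at E17.5 and 565 CPM over all irradiated goblet cells. The gastric and airway gel mucins Muc5ac, Muc5b and Muc6 had 0 UMIs in the goblet cells of all 3 libraries.

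**Figure D2:**
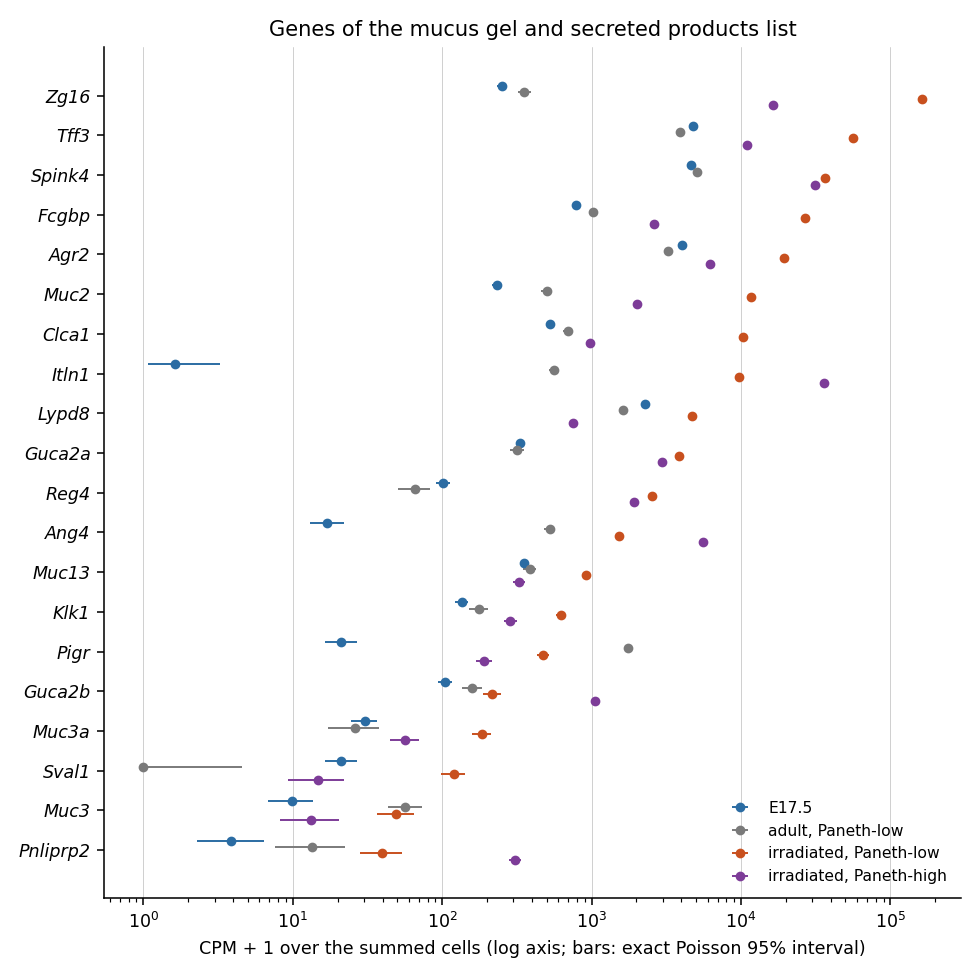
Level (CPM plus 1 over the summed UMIs of each set, log axis, with exact Poisson 95% intervals) of the mucus-list genes with at least 50 UMIs, ordered by the Paneth-low irradiated level. For Tff3, Fcgbp and Clca1 the E17.5 and adult points lie close, Muc2 is at 231 and 501 CPM in them, and the Paneth-low irradiated point lies to the right, while Itln1 and Ang4 are highest in Paneth-high cells.

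The Paneth-high cells of the irradiated library were themselves of 2 kinds. In 5 of the 23, Zg16 had 1033 to 8251 UMIs per cell beside a Paneth share of 12.2% to 49.1%, and the median Muc2 count was 457 UMIs. In the other 18, Zg16 had 1 to 93 UMIs with a median of 4, Muc2 had a median of 48.5 UMIs, Fcgbp of 8 and Clca1 of 1, and the median Paneth share was 47.9%. These 18 cells met the Muc2 and Fcgbp minimum but had little of the other gel genes, whereas Spink4 (median 1165.5 UMIs) and Itln1 (1291) were abundant. Whether the 5 cells are single cells or hold RNA of 2 cells was not tested beyond the Scrublet score, which marked none of them.

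Defa24 (chromosome 8), an alpha-defensin, was at 2446 CPM over the E17.5 goblet cells, 3120 CPM in Paneth-low adult cells, 4849 CPM in Paneth-low and 240757 CPM in Paneth-high irradiated cells. Lyz1, the Paneth lysozyme (chromosome 10), was at 17, 125, 1761 and 55140 CPM. Mmp7, the metalloprotease that activates defensins, was at 17, 56.9, 582 and 3533 CPM. Wnt3, a stem cell niche ligand of Paneth cells, was at 1.26 CPM at E17.5, 4.05 CPM in Paneth-low and 62.2 CPM in Paneth-high irradiated cells. Lyz1 and Mmp7 were in this way higher in irradiated Paneth-low cells than at E17.5, and the lysozyme was present at 2000 UMIs in 37.6% of irradiated endocrine cells too. The part of free RNA in the result was not tested. Of the Paneth list, 16 of 17 compared genes were higher over all cells (median log2 ratio 8.08, or 7.11 with genes at 0 UMIs set to 3) and 6 of 9 in the Paneth-low cells (3.82), where 4.79% and 6.35% of all genes were higher. Of the 17, 10 reached 50 UMIs only after irradiation and so had to be higher, and the 6 that did so in both libraries were all higher.

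Alpha-defensin RNA, typical of Paneth cells, which in the mouse arise after birth, was present in goblet cells at E17.5. Together the 23 defensin genes took a median of 0.186% and at most 3.22% of UMIs of E17.5 goblet cells, and Defa24 with Defa17 made 99.3% of the family's 10499 UMIs. In Paneth-high irradiated cells the family took 45.0% of UMIs and this pair 55.5% of it. Defa24 was detected in 87.9% of E17.5 goblet cells and stood at 7.41 CPM in the other non-endocrine epithelial cells. Defa17 was at 842 CPM at E17.5, 33.4 CPM in Paneth-low and 9060 CPM in Paneth-high irradiated cells. Mptx1, a pentraxin of the same cells, was at 159 CPM at E17.5 and 17.2 CPM in Paneth-low irradiated cells. Defensin genes are near-identical copies, so counts may be split between them and single members are uncertain.

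**Figure D3:**
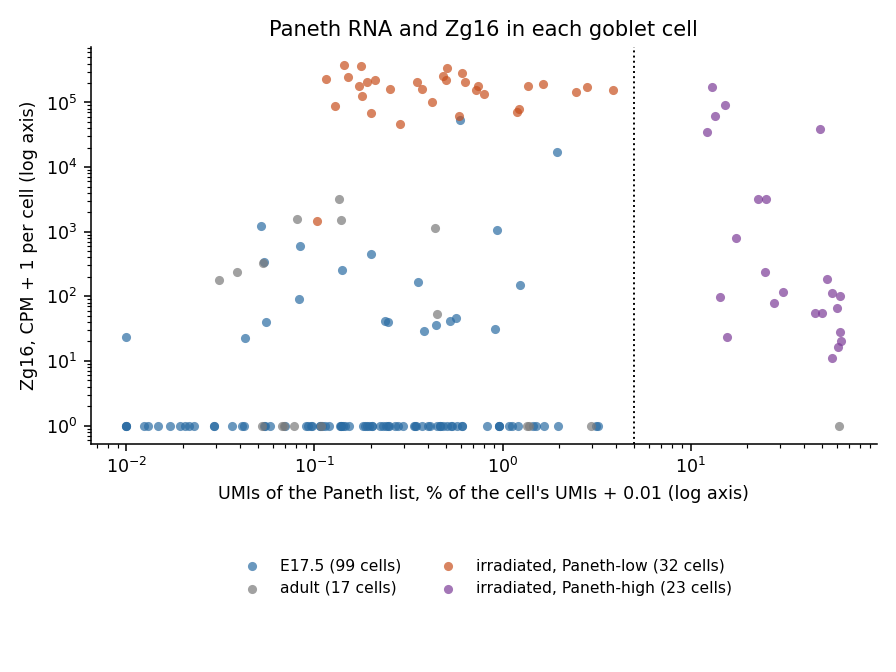
Share of UMIs from the Paneth list (percent plus 0.01, log axis) against the Zg16 level (CPM plus 1, log axis) in each goblet cell, by library, with the boundary of 5% dotted. The 32 Paneth-low irradiated cells lie at high Zg16 and the 23 Paneth-high cells spread from 9.92 to 171846 CPM of Zg16 with no cell between 3.84% and 12.2%.

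At E17.5 most goblet cells carried mitotic RNA. The 15 G2/M genes, which are transcribed as cells prepare to divide, gave a median of 80 UMIs per cell (highest 295) at E17.5, 98 (highest 383) in adult cells and 1 (highest 9) after irradiation. At an equal depth of 2000 UMIs, 56 of 99 E17.5 cells (56.6%, 46.2 to 66.5) and 11 of 17 adult cells (64.7%, 38.3 to 85.8) had at least 3 G2/M UMIs, against 0 of 55 irradiated cells, which allows up to 5.45%. Without thinning the shares were 84.8%, 94.1% and 23.6%. Endocrine cells at 2000 UMIs had 1.61%, 0.746% and 0.218%. In the other non-endocrine epithelial cells the shares were 47.9% (45.6 to 50.3) at E17.5, 6.12% in adult cells and 10.7% after irradiation. At E17.5 the share was thus high in the other cells too. Mitotic RNA was common in the E17.5 and adult goblet cells found by the rule and not detectable at this depth in the irradiated ones.

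The whole G2/M list was lower in the irradiated goblet cells, with 15 of 15 genes below E17.5 (median log2 ratio -6.32, or -5.46 with genes at 0 UMIs set to 3), and the S phase list with 16 of 16 (-4.14), where 60.2% of all genes were lower. Of these genes 14 and 15 reached 50 UMIs only at E17.5 and so had to be lower. Mki67, the standard proliferation marker, was at 194 CPM at E17.5, 306 CPM in Paneth-low adult and 2.04 CPM over irradiated goblet cells. Birc5, an inhibitor of apoptosis needed in mitosis, had 1280 UMIs at E17.5 and 0 in the irradiated cells, at least 330-fold lower. Cenpf, a kinetochore protein, was at least 159-fold lower. Pcna, the replication clamp, was at 127, 97.4 and 13.1 CPM in E17.5, Paneth-low adult and Paneth-low irradiated cells. In the other non-endocrine epithelial cells the same lists were also lower, but by less. There 14 of 15 G2/M genes were lower with a median of -1.51, and 11 of 17 S phase genes with -1.40. Of all 12107 genes compared in those cells 16.7% were lower, with a median of -0.15.

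Within E17.5 the goblet products were highest in cells out of cycle. The 84 cells with at least 3 G2/M UMIs and the 15 without were compared at summed counts, a split that depth can move, since their median depths were 34066 and 17962 UMIs. Fcgbp was at 549 CPM in the cycling and 3411 CPM in the non-cycling cells, Clca1 at 352 and 2472, and Tff3 at 3683 and 16968. Muc2 was at 190 and 695 CPM, Spink4 at 4282 and 8408, and Agr2 at 3653 and 8106, while Defa24 was at 2456 and 2336 CPM. Spink4, Tff3, Clca1 and Agr2 were higher in the non-cycling cells and Defa24 was not. For Muc2 and Fcgbp the rule's minimum of 3 UMIs sets a higher floor of CPM in shallower cells. The 15 included the 2 cells richest in Zg16 and 2 cells with hormone or pancreatic RNA described further on. In the 11 left without these 4, Fcgbp was at 1978 CPM, Clca1 at 1546, Tff3 at 10605, Muc2 at 426, Spink4 at 7578 and Agr2 at 7400 CPM, and Zg16 at 117 CPM against 28.5 in the cycling cells. Of all 6138 genes compared, 5.65% were more than 2-fold higher and 16.9% lower in the non-cycling cells. Zg16 had 3 or more UMIs in 10 cells, of which 7 were non-cycling, and the 2 cells with 540 and 138 UMIs of Zg16 had 0 G2/M UMIs and 155 and 150 Clca1 UMIs.

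**Figure D4:**
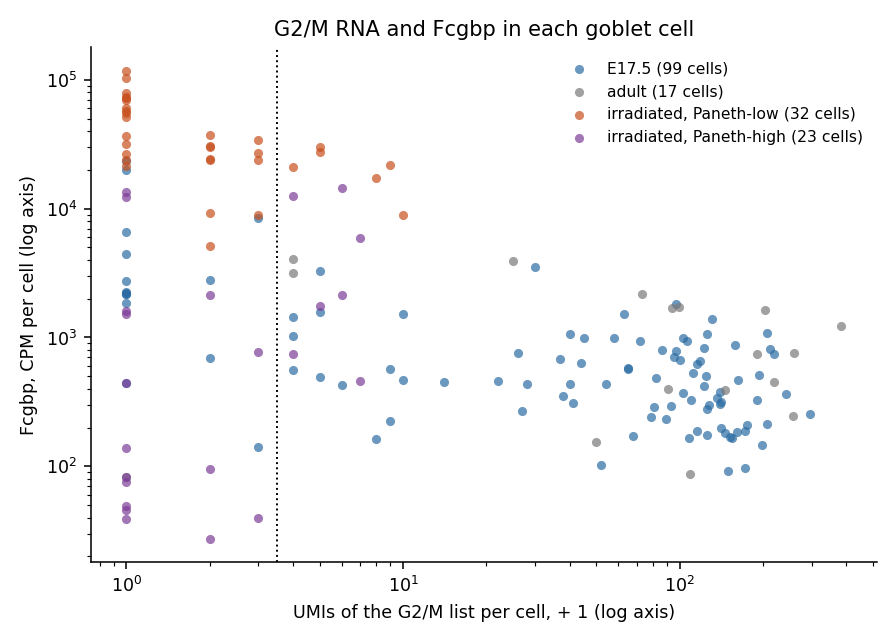
UMIs of the G2/M list (plus 1, log axis) against the Fcgbp level (CPM, log axis) in each goblet cell, with the limit of 3 G2/M UMIs dotted. E17.5 and adult cells spread to 295 and 383 G2/M UMIs at low Fcgbp, whereas irradiated cells have at most 9 and Paneth-low cells of that library at least 5150 CPM of Fcgbp.

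Genes that build and sulfate the mucin sugar chains split. Of 28 compared, 8 were more than 2-fold higher and 5 lower in the irradiated goblet cells (median 0.30). In the Paneth-low cells 13 were higher and 4 lower (median 0.96). Of all genes 4.79% were higher and 60.2% lower over all goblet cells, and 6.35% and 44% in the Paneth-low cells. Galnt5, B3gnt7 and Chst4 reached the minimum number of UMIs only in the irradiated cells, which favoured the higher direction. Of the 23 genes that reached it in both libraries, 6 were higher and 4 lower. In the Paneth-low cells 17 reached it in both, of which 9 were higher and 2 lower. Chst4, a sulfotransferase, was at 5.68 CPM at E17.5, 8.68 CPM in Paneth-low adult and 119 CPM in Paneth-low irradiated cells. B3gnt7, which extends sulfated chains, was at 1.58, 4.82 and 55.6 CPM, on only 5 UMIs at E17.5. Gcnt3, a mucin-type core branching enzyme, was at 71.0, 37.6 and 286 CPM, and Slc26a2, the sulfate importer, at 43.5, 68.4 and 266 CPM. These 4 were above both other libraries after irradiation. Fut2, the fucosyltransferase of secretor glycans, ran the other way, at 36.3 CPM at E17.5, 1.93 CPM in Paneth-low adult and 13.1 CPM in Paneth-low irradiated cells. In the other non-endocrine cells Fut2 was at 0.992 CPM at E17.5 and 26.9 CPM after irradiation. Its log2 ratio was thus -2.31 over all goblet cells, -1.40 in the Paneth-low cells and 3.81 in other cells. Because 174 of the 211 irradiated other cells had tuft RNA, the ratio of 3.81 sets unlike cells side by side. The 13.1 CPM of Fut2 rest on 13 UMIs, 6 of them from 1 cell, and were 7.37 CPM without it. St3gal1, a sialyltransferase, was at 77.9, 5.78 and 15.2 CPM.

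Of the protein-folding list of the endoplasmic reticulum, 4 of 39 genes were higher and 2 lower over all goblet cells, where 4.79% of all genes were higher and 60.2% lower. Its median was -0.05 over all cells, 0.30 in the Paneth-low cells and 0.99 with TMM scaling, so its sign differed with the cells and the scaling. Ern2, the goblet-specific stress sensor, was at 25.6 CPM at E17.5, 45.3 CPM in Paneth-low adult and 149 CPM in Paneth-low irradiated cells, and Kdelr3, a retrieval receptor, at 18.0, 12.5 and 108 CPM. Hsp90b1 and Canx, chaperones of the same compartment, were lower, at 1428 and 335 CPM at E17.5 and 691 and 160 CPM in Paneth-low irradiated cells. Within the irradiated library 23 of 39 genes of the list were more than 2-fold higher in Paneth-low goblet cells than in the other non-endocrine cells and 0 lower, where 3.97% of 7727 genes were higher and 33.7% lower. At E17.5 the same comparison gave 5 of 40 higher and 0 lower, where 1.99% of 11920 genes were higher and 3.44% lower. Hspa5, the main chaperone of that compartment, was at 760 CPM in goblet and 670 CPM in other cells at E17.5, and at 1529 and 436 CPM after irradiation.

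Of the granule traffic genes, Rab27a, Rab27b and Sytl2 were higher in irradiated goblet cells and Vamp7, Stxbp3 and Scin lower, of 11 compared. Of all genes 4.79% were higher and 60.2% lower, so a smaller share of this list was lower. Rab27a reached the minimum number of UMIs only in the irradiated cells and 1 gene only at E17.5, which favoured their directions. Of the 9 that reached it in both libraries, 2 were higher and 2 lower. Sytl2, which tethers granules to the membrane through Rab27, was at 28.4 CPM at E17.5, 21.2 CPM in Paneth-low adult and 182 CPM in Paneth-low irradiated cells, against 0.727 and 0.881 CPM in the other cells at E17.5 and after irradiation. Rab27b was at 62.2, 54.9 and 252 CPM, and Rab27a at 7.89, 7.71 and 60.7 CPM. The list's median was -0.61 over all cells, 0.03 in Paneth-low cells and 0.44 with TMM scaling, so its sign depends on the setting.

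The transcription factors of the lineage changed less than its products. Atoh1 (chr6:64729125-64731245), which commits cells to secretory fates, was at 64.7 CPM at E17.5, 42.4 CPM in Paneth-low adult and 180 CPM in Paneth-low irradiated cells, against 1.72 and 0.881 CPM in the other cells at E17.5 and after irradiation. Its log2 ratio was 0.72 over all cells (0.45 to 0.99) and 1.46 in Paneth-low cells. Spdef (chr17:27714352-27728955), the goblet and Paneth maturation factor, was at 86.1, 56.9 and 154 CPM, with a ratio of 0.15 over all cells whose interval, -0.11 to 0.40, spans 0. Both factors were thus present in E17.5 goblet cells well above the surrounding cells. Klf4, a factor of terminal goblet differentiation, was at 128, 204 and 590 CPM. It was the only 1 of 14 factors more than 2-fold higher over all cells, with Foxa1, Ehf and Cdx2 lower. Of all genes 4.79% were higher and 60.2% lower, with a median of -1.26, so a smaller share of the factors was lower. Cdx2, the intestinal identity factor, was at 223 CPM at E17.5, 147 CPM in Paneth-low adult and 54.6 CPM in Paneth-low irradiated cells, and also lower in the other cells (log2 ratio -1.55). The list's median was -0.18 over all cells, 0.21 in the Paneth-low cells and 0.87 with TMM scaling, so its sign differed.

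In the Notch list 1 of 6 compared genes was higher and 4 lower over all goblet cells, median -1.41, near the 60.2% lower and -1.26 of all genes. Hes1, the repressor induced by Notch, was at 205 CPM at E17.5, 80.0 CPM in Paneth-low adult and 31.4 CPM in Paneth-low irradiated cells. Dll4, a Notch ligand of secretory cells, was at 5.36, 11.6 and 43.5 CPM in the same sets. At E17.5 the ligands Dll1, Dll3 and Dll4 were each more than 2-fold higher in goblet than in other cells. Hes1 was close in the 2 sets, at 205 CPM in goblet and 230 CPM in other cells.

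Ion transport genes, which supply the chloride and bicarbonate that hydrate mucus, were lower in 5 of 8 over all cells (median -1.10) with Trpm4 higher, near the 60.2% and -1.26 of all genes, and in 3 of 7 in the Paneth-low cells, where 44% of all genes were. Cftr, the chloride and bicarbonate channel, was at 54.6 CPM at E17.5, 81.9 CPM in Paneth-low adult and 5.06 CPM in Paneth-low irradiated cells, where 3.13% of cells had a UMI of it against 70.7% at E17.5. Its log2 ratio over all cells was -3.57 (-5.05 to -2.94), against -0.31 in the other non-endocrine cells. Slc4a4, a bicarbonate transporter, was at 44.2, 73.3 and 10.1 CPM. With cycling cells left out of both libraries the list's median was 1.28, on the few non-cycling cells at E17.5, so its direction is not settled.

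Targets of p53, the factor activated by DNA damage, were higher in 6 of 12 compared genes over all goblet cells and lower in 0. Their median was 1.07, and 9 of 12 were higher in the Paneth-low cells. Of all genes 4.79% were higher over all goblet cells and 6.35% in the Paneth-low cells. Trp53inp1 and Phlda3 reached the minimum number of UMIs only in the irradiated cells, which favoured the higher direction. Of the 9 genes that reached it in both libraries, 4 were higher and 0 lower (median 0.85). In the Paneth-low cells 8 reached it in both, of which 7 were higher and 0 lower. Cdkn1a (chr17:29090976-29100727), the cell cycle inhibitor p21, was at 132 CPM at E17.5, 79.0 CPM in Paneth-low adult and 613 CPM in Paneth-low irradiated cells. Ccng1 was at 28.4, 28.9 and 152 CPM, and Phlda3, which restrains Akt, at 9.47, 3.86 and 59.7 CPM. The adult level of these 3 was close to or below that at E17.5. The same list was higher in 16 of 20 genes in the other cells (median 2.04), where 12.6% of all genes were higher. Cdkn1a was at 770 CPM there, so higher p53 targets were not seen in goblet cells alone.

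Genes of the regenerating epithelium were higher in 5 of 11 and lower in 1 (median 0.95), against 4.79% and 60.2% of all genes. In the other cells 14 of 18 were higher (median 2.41), where 12.6% of all genes were. Anxa3 and Ly6a reached the minimum number of UMIs only in the irradiated goblet cells, which favoured the higher direction. Of the 8 genes that reached it in both libraries, 3 were higher and 1 lower (median 0.85). S100a6, a calcium-binding protein, was at 500 CPM at E17.5, 53 CPM in Paneth-low adult and 3905 CPM in Paneth-low irradiated cells. Anxa3 was at 12, 1.93 and 220 CPM, and the growth factor Areg at 39.4 CPM at E17.5 and 258 CPM in Paneth-low irradiated cells. Clu, a marker of revival stem cells, did not follow, at 17.4 CPM at E17.5, 2.02 CPM in Paneth-low and 36.2 CPM in Paneth-high irradiated cells. Antigen presentation genes were higher in 6 of 11 over all cells, 11 of 11 in Paneth-low cells and 17 of 18 in other cells. Their medians were 1.31, 2.06 and 2.34, where 4.79%, 6.35% and 12.6% of all genes were higher. Of the 11, 5 reached the minimum number of UMIs only in the irradiated cells, which favoured this direction. Of the 6 that reached it in both libraries, 1 was higher over all cells (median 0.76). In the Paneth-low cells 4 reached it in both, and these 4 were higher. Against the Paneth-low adult cells 3 of 12 were higher and 2 lower. Of the 5 that reached it in both sets, 0 were higher and 0 lower. H2-K1, a class I heavy chain, was at 255, 455 and 780 CPM.

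All 9 compared fetal growth genes were lower in irradiated goblet cells (median -4.82, or -4.26 with genes at 0 UMIs set to 3), and 12 of 13 were lower in the other cells. Of all genes 60.2% were lower in the goblet cells and 16.7% in the other cells. In the goblet cells 8 of the 9 reached 50 UMIs only at E17.5 and so had to be lower. H19, an imprinted non-coding RNA, had 3769 UMIs at E17.5 (1189 CPM) and 0 in the irradiated goblet cells, at least 972-fold lower. Hmga2 and Igf2bp3, an architectural chromatin protein and an RNA-binding protein of fetal growth, were at 113 and 109 CPM at E17.5 and had 0 UMIs in irradiated goblet cells, at least 92.3-fold and 89.2-fold lower. H19 had 0 UMIs in adult goblet cells too.

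Against the Paneth-low adult cells, which share the adult label but are only 16, 11.7% of 3175 genes were more than 2-fold higher in Paneth-low irradiated cells and 38.1% lower. The adult cells had a median of 12% mitochondrial UMIs against 3.58% in the irradiated ones, and 12 of the 17 adult goblet cells failed a limit of 1000 genes and 10% mitochondrial UMIs. At 2000 UMIs per cell 11 of the 16 adult cells had at least 3 G2/M UMIs, against 0 of the 32 irradiated ones. The part of these differences in the ratios was not tested. Without Muc2 and Fcgbp, 14 mucus genes reached 50 UMIs in both sets, of which 12 were higher and 1, Pigr, lower, with a median of 2.70, where 130 of all 1634 such genes were higher and 392 lower. G2/M genes were lower in 12 of 12, crypt stem genes in 5 of 6 and p53 targets higher in 7 of 10. All 12 G2/M genes and 4 of the crypt stem genes reached 50 UMIs only in the adult cells. For p53 targets, 6 did so only in the irradiated cells, so the minimum itself favoured these directions. Of the genes that reached it in both sets, 1 of 2 crypt stem genes was lower and 2 of 4 p53 targets were higher. The highest ratios were of Zg16 (8.83), Gsta1 (6.52), Anxa10, R3hdml and Ido1. The last 3 had 0 UMIs in the adult cells, so they had to be higher and their ratios depend on the pseudocount of 1 CPM. With 3 UMIs as the limit they were at least 27.3-fold, 26.9-fold and 25.9-fold higher. Of the irradiated UMIs, 35.9% for Anxa10 and 39.2% for Ido1 came from 1 cell. The adult Gsta1 level rests on 5 UMIs, 4 of them from 1 cell. The lowest was of Olfm4, a crypt progenitor gene, at 1405 CPM in the Paneth-low adult and 3.03 CPM (3 UMIs) in the Paneth-low irradiated cells, a log2 ratio of -8.45 (-11.13 to -7.31). Gsta1 and Gsta4, glutathione transferases, were at 532 and 814 CPM in the Paneth-low irradiated cells and at 4.82 and 12.5 CPM in the adult ones. In Paneth-high irradiated cells Gsta1 was at 35.5 CPM and Gsta4 at 56.0 CPM. Ido1, a tryptophan-degrading enzyme, had 0 UMIs in E17.5 and adult goblet cells, 74.8 CPM in Paneth-low and 0.683 CPM in Paneth-high irradiated cells. Ido1 was in 50% of Paneth-low irradiated cells and at 0.440 CPM in the other cells of that library.

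Compared with the other non-endocrine epithelial cells of the same library, a description since the rule picked the cells, several genes outside the lists marked goblet cells in both libraries. Tpsg1, a transmembrane tryptase, was at 136 CPM in E17.5 goblet cells against 0.860 CPM in other cells, and at 183 CPM against 0 UMIs in Paneth-low irradiated cells. Ccl6, a chemokine, was at 116 against 0.110 CPM at E17.5 and at 2012 against 7.49 CPM in Paneth-low irradiated cells. Ramp1, a co-receptor for calcitonin gene-related peptide, was at 141 against 3.28 CPM and at 482 against 0.881 CPM. Rep15, a Rab15 effector, was at 89.6 against 1.81 CPM and 415 against 0.881 CPM. Tpsg1, Ramp1 and Rep15 were detected in 94.9%, 86.9% and 81.8% of E17.5 goblet cells, and Ccl6 in 44.4%. Ccl9, a related chemokine, was at 249 CPM at E17.5 and 61.7 CPM in Paneth-low irradiated cells. Over all irradiated goblet cells 2.7% of 7776 genes were more than 2-fold higher and 58.3% lower than in the other cells. Of those other cells, 174 of 211 had at least 3 tuft-list UMIs, against 11 of 1871 at E17.5, so the 2 reference sets differ in makeup.

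RNA of other cell types was present in the goblet cells. At E17.5, 4 cells had more than 1% enteroendocrine-list UMIs (highest 33.9%), and 2 of these also had more than 1% acinar-list UMIs (highest 16.0%). Of 4497 Ghrl UMIs, the ghrelin gene, 62.6% came from 1 of them, and of 1713 Ctrb1 UMIs, a pancreatic protease, 90.7% from another. Without these 4 cells the mucus median was 2.99, against 3.01 with them. Enterocyte-list RNA was above 1% in 14 E17.5 goblet cells. Of 14 enterocyte genes, 13 were lower in the irradiated goblet cells (median -3.09), where 60.2% of all genes were. Of these 14 genes, 9 reached the minimum number of UMIs only at E17.5, which favoured this direction. Of the 5 that reached it in both libraries, 4 were lower (median -2.33). The tuft list was between 0% and 0.701% of UMIs in Paneth-low irradiated cells, with 11 of 32 at 3 or more UMIs, and at most 0.0120% at E17.5. Gip, a hormone, was in every irradiated goblet cell at 309 CPM, with 514 CPM in the other cells of that library. The part of such RNA in these ratios was not tested. The mesenchyme and blood lists reached at most 0.0272% and 0.0136% of UMIs of a goblet cell at E17.5 and after irradiation.

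Across all genes the largest irradiated-over-E17.5 ratios in goblet cells belonged to Itln1, Paneth defensins, Lyz1, Mptx2 and Zg16, and the lowest to H19, Birc5, Bex4, Ctrb1, Bex1 and Pclaf. With the Paneth-low cells alone the highest ratios included those of Itln1 (12.55), Zg16 (9.33), Lyz1 (6.61) and Ang4 (6.49). The difference between the goblet ratio and that in other cells was highest for Defa29 (6.37), Mptx2 (6.25), Itln1 (5.60), Lyz1 (4.82) and Wnt3 (4.66), and lowest for Birc5 (-6.24), Fut2 (-6.12), Cenpf (-5.49), Cdc20 (-5.29) and Cdk1 (-5.20). The first 5 were highest in the Paneth-high cells. Defa29 had 0 UMIs at E17.5, and Birc5 and Cenpf 0 in irradiated goblet cells, so their differences depend on the pseudocount of 1 CPM. With TMM scaling, which centres the bulk of genes, the median of all genes moved from -1.26 to -0.24, and 37.0% of the genes past 2-fold were higher, against 7.36% with totals. In that scaling the mucus median was 4.07.

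**Figure D5:**
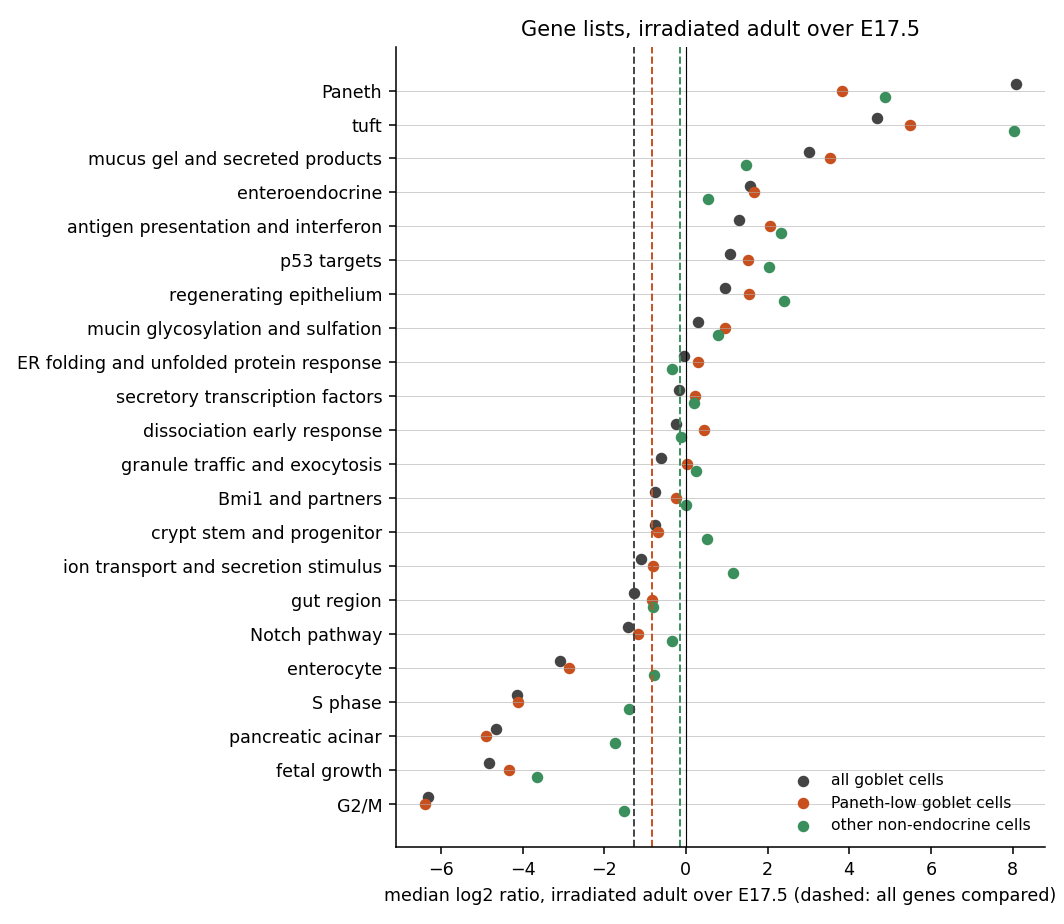
Median log2 ratio of irradiated adult over E17.5 for each list with at least 5 genes compared in goblet cells, in all goblet cells, Paneth-low goblet cells and other non-endocrine epithelial cells, with the median of all genes compared dashed. Paneth (8.08 over all goblet cells) and mucus (3.01) lie to the right and G2/M (-6.32) and fetal growth (-4.82) to the left, with the other cells at -1.51 for G2/M.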

How the data were processed

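RNA of single cells was counted in 4 libraries, 1 per group. Per the labels' protocols, sorted epithelial cells were processed with the 10x Chromium 3' kit and sequenced on a HiSeq 2500. Per the submitters' processing notes, Cell Ranger 3.1.0 and the mm10 build were used. The authors deposited whole-number UMI counts per gene and barcode for 31054 features, without normalization, and every library's lowest total was 500 UMIs.

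The goblet cells, the 24 gene lists and the comparisons were chosen with earlier results of these data known. Named genes were the list members, the 10 highest and 10 lowest ratios among genes with at least 50 UMIs and a UMI in 25% of the cells of the higher set, the 10 highest goblet-over-other ratios within a library, and the 5 highest and lowest differences of ratios. Predicted, ribosomal, mitochondrial and sex-linked genes were left out of these ranks. The Paneth-low and Paneth-high sets, the E17.5 cycling split and the ratios over the adult library were added after the values were seen, and their named genes are the same ranks or list members. Single genes of the lists were picked for the text with their values known. A ranked gene is not reported here.

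UMIs were summed over the cells of a set and scaled to CPM. Ratios are log2 of CPM plus 1, and genes with at least 50 UMIs in either set entered. List counts were also made without Muc2 and Fcgbp among genes that reached the minimum in both sets, chosen after seeing the data. Poisson and Clopper-Pearson intervals are at 95%, and a count of 0 allows 3 UMIs or cells. Other non-endocrine epithelial cells were kept cells with an Epcam UMI, Muc2 and Fcgbp both under 3 UMIs, Chga and Chgb under 0.1%, Col1a1 and Col3a1 under 0.1% and 4 acinar genes under 0.5% of UMIs. Endocrine cells had Chga and Chgb at 1% or more. Doublets were scored with Scrublet (scanpy 1.11.5) at 0.8% per 1000 barcodes and kept, and left out as an alternative. TMM factors came from edgeR 4.0.16, used for scaling only. Gene positions are from GENCODE M21 (GRCm38) and promoters from RefSeq (GRCm38.p6, 18 of 30 mucus genes matched). The ratio and interval code was tested on simulated data. Python 3.11.15, R 4.3.3, numpy 2.4.6 and scipy 1.17.1 were used.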

Additional observations from a re-analysis of the deposited data

How the results depend on the processing

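With 1 library per group every value describes these libraries, and no paired analysis was possible because each group has a single library and shares no replicate number with another. No library could be left out. The E17.5 count of 99 goblet cells became 60 and 19 with minimums of 5 and 10 UMIs of Muc2 and Fcgbp, 21 when Zg16 and Spink4 UMIs were also asked for, and 5 at 2000 UMIs per cell. The adult count of 17 became 5 with at least 1000 genes and at most 10% mitochondrial UMIs, 8 with Zg16 and Spink4, and 3 at 2000 UMIs. The irradiated count of 55 became 115 without the chromogranin limit and 36 at 2000 UMIs.

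For irradiated over E17.5 in goblet cells, genes past 2-fold higher went from 318 to 667 (at least 10 UMIs), 134 (at least 200), 860 (TMM), 481 (Muc2, Fcgbp and Paneth genes out of the totals), 178 (cycling cells left out) and 794 (Paneth-high cells left out with TMM, chosen after seeing the data). Genes lower went from 4000 to 1686 (at least 200 UMIs), 1462 (TMM), 1102 (cycling cells left out) and 1701 (Paneth-high cells left out with TMM). The mucus median of 3.01 was positive throughout, at 2.77 (at least 10 UMIs, and again with a minimum of 5 UMIs of the rule's genes), 3.24 (at least 200), 2.85 (mean of cells' CPM), 4.07 (TMM), 2.72 (mitochondrial and ribosomal genes out of the totals), 3.49 (Muc2, Fcgbp and Paneth genes out), 3.54 (Paneth-high left out), 1.85 (cycling cells left out) and 4.09 (Paneth-high left out with TMM). The Paneth median of 8.08 became 5.76 (pseudocount of 10 CPM), 7.02 (at least 10 UMIs), 7.07 (mean of cells' CPM), 7.46 (minimum of 5), 3.82 (Paneth-high left out) and 4.36 (with TMM as well). The G2/M median of -6.32 became -3.42 (pseudocount of 10) and -5.55 (TMM). The cycling share was 36.4%, 69.7% and 84.8% at E17.5 at 1000 UMIs, 4000 UMIs and full depth, 42.4% with at least 5 G2/M UMIs, 35.3% and 94.1% for adult cells at 1000 UMIs and full depth, and 23.6% for irradiated cells at full depth.

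In other cells, genes higher went from 1525 to 860 and lower from 2027 to 750 with a pseudocount of 10, and lower to 3270 with the mean of cells' CPM. Goblet over other cells at E17.5 went from 237 to 122 higher and from 410 to 45 lower with a pseudocount of 10, and to 817 lower with the mean of cells' CPM. In the irradiated adult it went from 210 to 371 higher with that mean, and from 4535 lower to 2127 without tuft cells and 2516 with a pseudocount of 10. The acinar median of -4.66 turned to 1.15 (minimum of 5), 0.52 (doublets removed) and 0.75 (4 mixed E17.5 cells left out, chosen after seeing the data), and ion transport from -1.10 to 1.28 (cycling cells left out). The cause was not tested. Among the remaining values of lists and genes, 516 stayed within their main interval, 246 moved outside it and 4 reversed. Depth limits what the 15 non-cycling E17.5 and 16 adult cells can show.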
